A study of Mus musculus with 8 samples.

Results

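The comparison described here is the loss of Ring1b in MLL-AF9-transduced mouse haematopoietic progenitors, read as the ratio of 1 OHT library to 1 control library. Its members are the transcripts with a normalised read count of 20 or more in the higher of those libraries, 10831 of the 19353 transcripts in the table. The other 8522 transcripts stayed under that floor. The lowest value inside it was 20.1 and the highest outside it 19.1. Both libraries come from C57BL/6 bone marrow depleted of cells carrying mature lineage markers, a preparation enriched in stem and progenitor cells. The cells of every group of the study carry Ring1a-/- and Cdkn2a-/-, so the control cells also lack Ring1a and the INK4A/ARF locus. After transduction with MLL-AF9 they were kept for 72 h with ethanol (control, given as Ring1b WT) or with 4-hydroxytamoxifen (OHT, given as Ring1b KO). The labels name neither the Cre line through which OHT acts nor the number of mice, and no clone or sort of the transduced cells. The 3 other contexts, used here for comparison, are cells that were not transduced (NT) and cells transduced with HOXA9 or with PML-RARa, each with the same pair of genotypes and treatments. All 8 groups hold 1 library. Within MLL-AF9 there is therefore no replicate spread and no test, and each value is given with its reads and with an interval that covers counting error only.

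Ring1a and Ring1b are alternative catalytic subunits of Polycomb repressive complex 1 (PRC1), which places ubiquitin on histone H2A and holds developmental genes silent. With Ring1a already deleted, loss of Ring1b takes away the remaining catalytic RING subunit. MLL-AF9 fuses the N-terminal part of the methyltransferase MLL1 (Kmt2a) to AF9 (Mllt3), a subunit of a transcription elongation complex. It keeps a set of progenitor genes active, among them the later HoxA genes and Meis1, and arises mainly in acute leukaemias of the monocytic branch. Macrophages, the end of that branch, are marked by the receptor Csf1r, complement C1q, scavenger receptors and lysosomal enzymes.

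Recovered reads totalled 5342836 in the control library and 4226751 in the OHT library, against 4886703 to 6998223 in the 6 libraries of the other contexts. The OHT library of MLL-AF9 was thus the shallowest of the 8, and 1 read stands for a value of 1.06 in the control library and 1.36 in the OHT library. The lowest entry of a transcript is 1 read, held by 18.2% of transcripts in the control library and 20% in the OHT library, and whether it stands for 0 or 1 read is not known. Ratios against such entries are given with their intervals, and their sizes depend on this. Rnf2, the gene of Ring1b, had 769.8 in the control library (727 reads) and 767 in the OHT library (562 reads). This is a log2 ratio of -0.01 on values with 1 added, the scale of every log2 ratio given here. The value is 1 number for the whole transcript, so it cannot show whether part of Rnf2 was deleted, and it does not check the labels. Ring1, deleted in all groups, still had 166 without OHT (157 reads) and 77.8 with it (57 reads), 2.14-fold lower (95% counting interval 1.57 to 2.95). The 2 transcripts of Cdkn2a had values of 18 and 42.4 in the control library and 27.3 and 31.4 in the OHT library. Kmt2a had 1605 without OHT (1516 reads) and 1157 with it (848 reads) and Mllt3 19.1 without OHT (18 reads) and 35.5 with it (26 reads), values that do not separate the fusion from the mouse genes.

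Of the members, 1570 (14.5%) were at least 2-fold higher in the OHT library and 1694 (15.6%) at least 2-fold lower. A p under 0.05 in the authors' deposited table was found for 805 members, of which 646 were among the higher and 159 among the lower. The median log2 ratio of all members was -0.14, with quartiles of -0.68 and 0.43. The numbers on each side were close, but the sizes were not: 441 transcripts were at least 8-fold higher and 48 at least 8-fold lower. A counting interval clear of 1 was found for 1557 of the higher and 1658 of the lower transcripts. Since 811 members reached 20 in the OHT library only and 739 in the control library only, those had to differ. Among the 9281 members with 20 or more in both, 892 were at least 2-fold higher and 1163 at least 2-fold lower. The 12 housekeeping genes listed as references all lay between the 2-fold limits, with a median log2 ratio of 0.29.

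**Figure D1:**
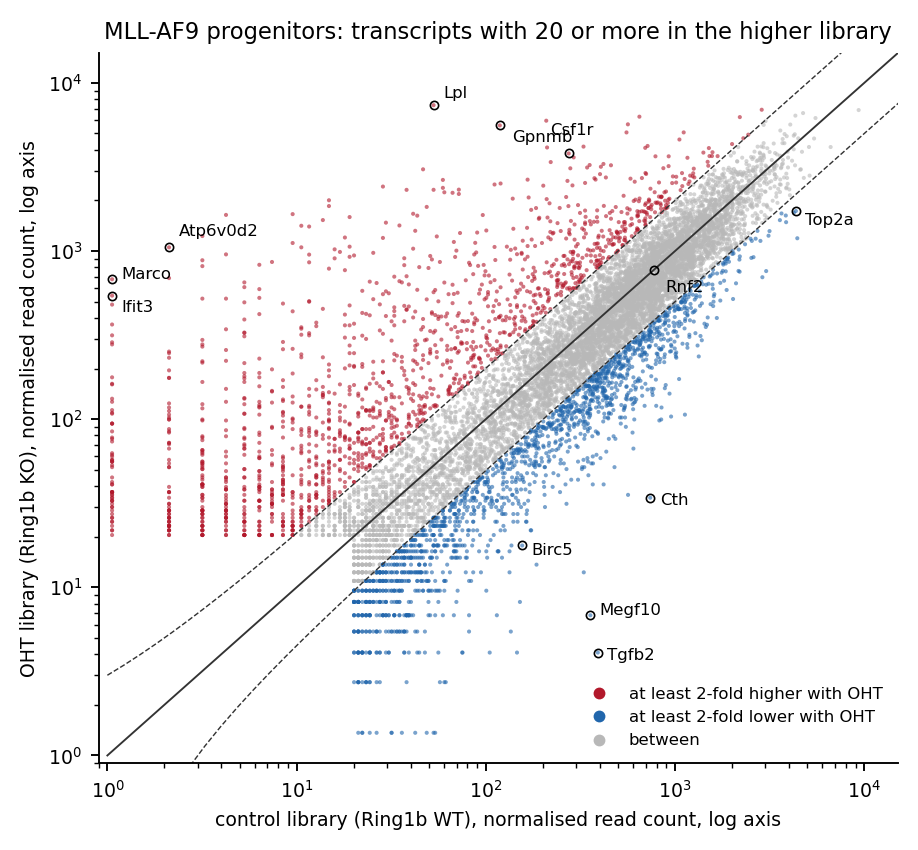
Normalised read count of each of the 10831 members in the control library (horizontal, log axis) and the OHT library (vertical, log axis) of MLL-AF9 progenitors. The solid line marks equal values and the dashed lines a log2 ratio of 1 or -1; red points are the 1570 at least 2-fold higher, blue points the 1694 at least 2-fold lower, and circled points are named genes.

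Antiviral interferon effector genes were among the transcripts with the largest ratios. Type I interferons act through a receptor and a complex that holds STAT2 and IRF9, which binds a sequence called the interferon-stimulated response element (ISRE) before such genes. Of 35 effector genes measured, 32 were members, and 29 of these were at least 2-fold higher, none at least 2-fold lower, with a median log2 ratio of 3.44. Because 11 reached 20 in the OHT library only, the 21 with 20 or more in the control library are the fairer count, and 18 of them were at least 2-fold higher. Ifit3, which encodes an RNA-binding antiviral protein, had 1.06 in the control library (1 read) and 543 in the OHT library (398 reads), 513-fold higher (95% counting interval 91.5 to 20304). Ifit1, which binds viral RNA that lacks a host cap, had 6.35 without OHT (6 reads) and 828 with it (607 reads), 130.3-fold higher (59.5 to 357). Both stood at or near the lowest entry without OHT and far above the floor with it. Rsad2, encoding viperin, had 14.8 without OHT (14 reads) and 2004 with it (1469 reads), 135-fold higher (80.3 to 248). Usp18, a protease that removes ISG15 from proteins and restrains the interferon receptor, had 4.24 without OHT (4 reads) and 955 with it (700 reads), 225-fold higher (87.7 to 829.8). Rtp4, an interferon-induced chaperone, went from 2.12 to 690.3 and the 2-5A synthetase family member Oasl2 from 19.1 to 1592. Effector genes with many reads in both libraries were higher as well: Parp14 had 270.0 without OHT (255 reads) and 2613 with it (1915 reads), 9.68-fold higher (8.49 to 11.1). The other 2-5A synthetase Oas3 had 168 without OHT (159 reads) and 2082 with it (1526 reads), 12.4-fold higher (10.5 to 14.7).

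The sequence before these genes is printed for the 3 effectors with the largest ratios whose promoter window holds the ISRE letters, taken as GAAA, any 2 bases and GAAA on either strand. Each run is the 250 bases before the RefSeq start, 5′ to 3′ on the gene's strand, from RefSeq on GRCm38.p6, with the match in capitals. Ifit3 lies at chr19:34583279-34583528, plus strand, Rsad2 at chr12:26456453-26456702, minus strand and Ifit1 at chr19:34640639-34640888, plus strand.
Ifit3: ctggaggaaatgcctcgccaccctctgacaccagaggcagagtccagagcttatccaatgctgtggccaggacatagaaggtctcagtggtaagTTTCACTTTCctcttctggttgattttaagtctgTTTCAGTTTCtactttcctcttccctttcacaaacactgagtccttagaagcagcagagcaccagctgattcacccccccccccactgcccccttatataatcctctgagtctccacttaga
Rsad2: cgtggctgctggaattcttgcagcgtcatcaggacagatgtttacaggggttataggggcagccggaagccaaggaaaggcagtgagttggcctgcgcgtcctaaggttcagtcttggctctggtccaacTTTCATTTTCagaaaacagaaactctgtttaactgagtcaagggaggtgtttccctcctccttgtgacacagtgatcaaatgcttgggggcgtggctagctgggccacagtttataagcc
Ifit1: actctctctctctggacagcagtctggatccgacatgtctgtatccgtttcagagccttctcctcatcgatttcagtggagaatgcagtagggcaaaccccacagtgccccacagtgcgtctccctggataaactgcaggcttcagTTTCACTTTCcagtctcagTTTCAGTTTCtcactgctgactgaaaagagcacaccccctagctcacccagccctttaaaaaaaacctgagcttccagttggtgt
Ifit3 and Ifit1 hold 2 matches each and Rsad2 holds 1, all in the TTTC orientation. The nearest match begins 122 bases before the start in Ifit3, 120 in Rsad2 and 85 in Ifit1. The letters were found in 14 of 30 windows of the effector genes (46.7%) and in 2.98% of all 32851 windows. Among members, 5.86% of the 1399 windows of the higher transcripts held them, against 2.98% of the 1508 windows of the lower and 2.26% of the 7081 windows of those between. A match describes letters in a window and does not show binding.

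Genes that sense foreign nucleic acid followed the same direction, and 8 of 12 members were at least 2-fold higher (5 of the 8 with 20 or more in the control library). Tlr7, a receptor for single-stranded RNA in endosomes, had 20.1 in the control library (19 reads) and 941 in the OHT library (690 reads), 46.8-fold higher (95% counting interval 29.7 to 78.2). Tlr13, which detects bacterial ribosomal RNA, had 111 without OHT (105 reads) and 2487 with it (1823 reads), 22.4-fold higher (18.4 to 27.5). Ddx58, encoding the cytosolic sensor RIG-I, had 275 without OHT (260 reads) and 1285 with it (942 reads), 4.67-fold higher (4.06 to 5.38). The kinases, receptors and factors that carry the interferon signal showed smaller ratios, with 8 of 13 at least 2-fold higher (6 of 11 with 20 or more in the control library). Stat2 had 683 without OHT (645 reads) and 1720.3 with it (1261 reads), 2.52-fold higher (2.29 to 2.77), and Irf8, a factor needed for monocyte and dendritic cell development, 560.1 without OHT (529 reads) and 1669.9 with it (1224 reads), 2.98-fold higher (2.69 to 3.31). Ifngr1, the ligand-binding chain of the interferon-gamma receptor, was on the other side of 1, with 2052 without OHT (1938 reads) and 1434 with it (1051 reads), 1.43-fold lower (1.33 to 1.54).

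Macrophage markers and chemokines had the highest medians of the 44 gene lists, medians that include genes which reached 20 in the OHT library only. Of 29 macrophage markers measured, 26 were members, 23 were at least 2-fold higher and none at least 2-fold lower, with a median log2 ratio of 5.48. The control library already held 20 or more of 12 of them, 9 of which were at least 2-fold higher. Summed over the 10 markers set down as defining macrophages, the values were 1131 in the control library and 13741 in the OHT library. All 10 were at least 2-fold higher. Csf1r, the receptor for the macrophage growth factor CSF1, had 274 in the control library (259 reads) and 3804 in the OHT library (2788 reads), 13.9-fold higher (95% counting interval 12.2 to 15.8). Gpnmb, a glycoprotein of lipid-laden macrophages, had 119 without OHT (112 reads) and 5585 with it (4094 reads), 47.1-fold higher (39 to 57.3). The scavenger receptor Marco had 1.06 without OHT (1 read) and 679 with it (498 reads), and the high-affinity IgG receptor Fcgr1 10.6 without OHT (10 reads) and 1052 with it (771 reads). The 3 chains of complement C1q were near the lowest entry without OHT, at 1.06 for C1qa, 3.18 for C1qb and 1.06 for C1qc. With OHT they stood at 177, 521 and 366. Ccr2, the monocyte receptor for CCL2, was abundant in both libraries, with 3378 without OHT (3190 reads) and 3825 with it (2804 reads). In a bulk library, more cells of a type and more RNA of that type in each cell cannot be told apart.

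Transcription factors of the myeloid branches went both ways, with more of them higher than lower. Maf, which helps to keep macrophages in their differentiated state, went from 5.29 to 609.8. Klf4, a monocyte factor, had 52.9 in the control library (50 reads) and 569 in the OHT library (417 reads), 10.7-fold higher (95% counting interval 8.0 to 14.7). Fos, of the AP-1 family, had 174 without OHT (164 reads) and 1757 with it (1288 reads), 10.1-fold higher (8.6 to 12). Gfi1, which favours granulocytes over monocytes, had 116 without OHT (110 reads) and 16.4 with it (12 reads), 7.11-fold lower (3.91 to 14.2). Egr1, an early response factor, was lower too, with 2666 without OHT (2518 reads) and 1184 with it (868 reads), 2.25-fold lower (2.08 to 2.43). Of 23 such factors that were members, 11 were at least 2-fold higher and 2 at least 2-fold lower. These are 47.8% and 8.7%, against 14.5% and 15.6% over all members. Of the 20 with 20 or more in the control library 8 were higher and 2 lower.

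Every chemokine that was a member was at least 2-fold higher, 16 of 16, with a median log2 ratio of 5.56. Only 5 of them had 20 or more in the control library, all 5 of them higher. Ccl2 and Ccl7, which draw monocytes through Ccr2, had some of the largest ratios. Ccl2 had 10.6 in the control library (10 reads) and 1413 in the OHT library (1036 reads), 133-fold higher (95% counting interval 72.3 to 279). Ccl7 had 3.18 without OHT (3 reads) and 1228 with it (900 reads), 387-fold higher (132 to 1878). Ccl5, which draws T cells and monocytes, had 1.06 without OHT (1 read) and 315 with it (231 reads). Ccl9 and Ccl6, made by myeloid cells at rest, were abundant beforehand and stood 2.71-fold (2.55 to 2.89) and 4.17-fold (3.82 to 4.56) higher. Among receptors for chemokines, 7 of 9 members were at least 2-fold higher (4 of the 6 with 20 or more in the control library). Ccr1 had 401 without OHT (379 reads) and 2866 with it (2101 reads), 7.14-fold higher (6.4 to 7.99).

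Inflammatory cytokines and enzymes showed 12 of 17 members at least 2-fold higher and none lower. With 20 or more in the control library there were 10, and 5 of these were higher. Il1a, an alarm cytokine, had 11.6 in the control library (11 reads) and 952 in the OHT library (698 reads), 81.8-fold higher (95% counting interval 45.4 to 165). Il1b had 87.9 without OHT (83 reads) and 1119 with it (820 reads), 12.7-fold higher (10.1 to 16.2). Arg1, which consumes arginine, went from 8.47 to 156, and Tlr2, the receptor for bacterial lipoproteins, from 431 to 2738. Cytokine receptors were less uniform, with 7 of 15 at least 2-fold higher and 1 lower (6 and 1 of the 14 with 20 or more in the control library). Il7r, best known from lymphoid progenitors, had 9.53 without OHT (9 reads) and 1658 with it (1215 reads), 174-fold higher (91.3 to 381). The common beta chains of the IL-3 and GM-CSF receptors, Csf2rb and Csf2rb2, had values of 2871 and 6922 and of 1111 and 5075 in the control and OHT library. Flt3, a receptor of early progenitors, was the lower one, with 75.2 without OHT (71 reads) and 25.9 with it (19 reads), 2.9-fold lower (1.73 to 5.1).

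Genes for taking up and handling lipid followed the macrophage markers, and 14 of 17 members were at least 2-fold higher and 1 lower (7 and 1 of the 10 with 20 or more in the control library). Lpl, the lipase that frees fatty acids from lipoproteins, had 52.9 in the control library (50 reads) and 7367 in the OHT library (5400 reads), 139-fold higher (95% counting interval 105 to 188). Its OHT value was the highest of any gene named here. Fabp4, a fatty acid carrier, went from 1.06 to 480.2, and the cholesterol exporter Abca1 from 3.18 to 881. Mertk, a receptor for dying cells, had 6.35 without OHT (6 reads) and 527 with it (386 reads), and its bridging ligand Gas6 had 2.12 without OHT (2 reads) and 252 with it (185 reads). Lrp1, a large scavenging receptor, had 554 without OHT (523 reads) and 5074 with it (3719 reads), 9.16-fold higher (8.36 to 10.1). Of 23 lysosome and osteoclast genes, 10 were at least 2-fold higher and none lower (7 of the 20 with 20 or more in the control library). Atp6v0d2, a proton pump subunit used in macrophage fusion, had the largest log2 ratio of all members with 100 or more, with 2.12 without OHT (2 reads) and 1052 with it (771 reads). Ctsk, the collagen-degrading protease of osteoclasts, had 6.35 without OHT (6 reads) and 422 with it (309 reads). The widely used lysosomal protease Ctsb had 2199 without OHT (2077 reads) and 6258 with it (4587 reads), 2.85-fold higher (2.7 to 3.0).

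Genes of antigen presentation differed by class. In the dendritic cell and MHC class II list 9 of 14 members were at least 2-fold higher and 1 lower. H2-Aa, a class II chain, had 11.6 in the control library (11 reads) and 503 in the OHT library (369 reads), and the invariant chain Cd74 had 2.12 without OHT (2 reads) and 176 with it (129 reads). The costimulators Cd86 and Cd80 went from 19.1 to 1061 and from 5.29 to 327. Only 5 of these 14 genes had 20 or more in the control library, 1 of them higher. Class I genes had smaller ratios: 3 of 17 were at least 2-fold higher, near the 14.5% over all members, and their median was 0.51. Nlrc5, the class I transactivator, had 158 without OHT (149 reads) and 614 with it (450 reads), 3.89-fold higher (95% counting interval 3.23 to 4.72), and B2m, the class I light chain, 1029 without OHT (972 reads) and 1812 with it (1328 reads).

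**Figure D2:**
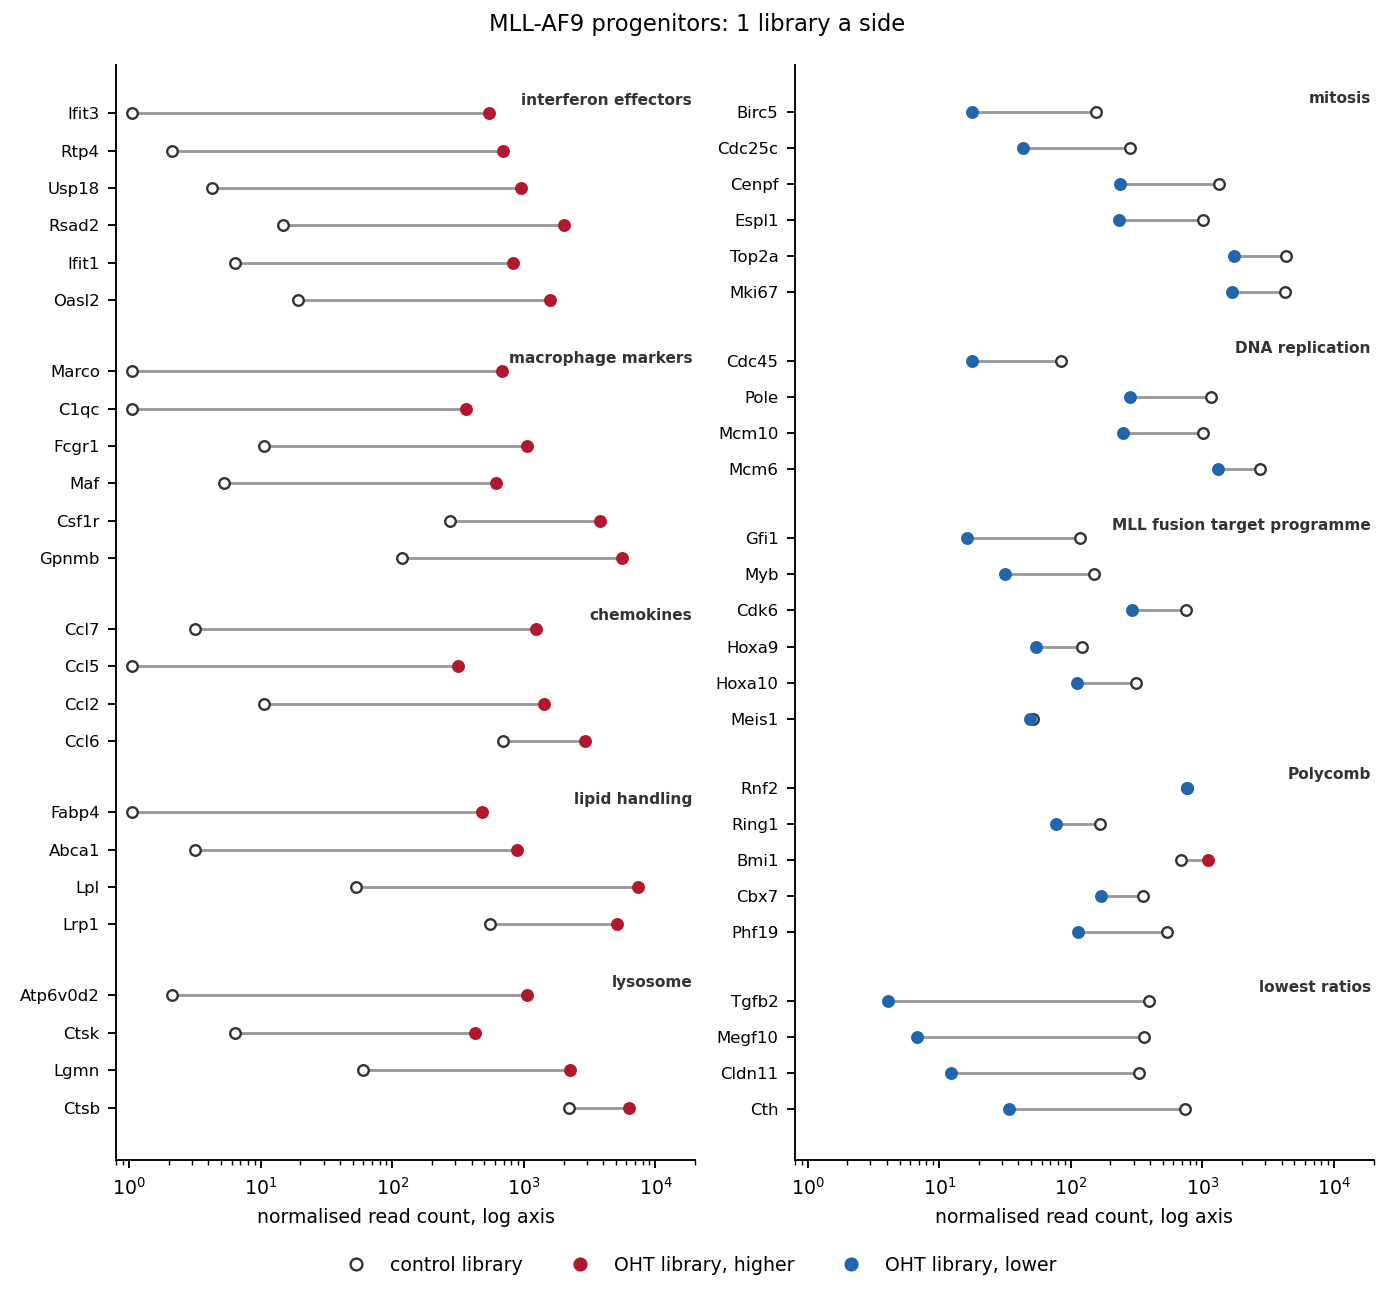
Normalised read counts (log axis) of named genes in the control library (open circles) and the OHT library (filled circles; red where higher, blue where lower) of MLL-AF9 progenitors, grouped by role. Genes of the left panel lie higher with OHT; in the right panel Rnf2 and Meis1 hardly move, Bmi1 is higher and the others are lower.

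Genes of cell division were lower together. Of 46 mitosis genes measured, 39 were members, and all 39 had 20 or more in the control library. In the OHT library 35 of them were at least 2-fold lower and none at least 2-fold higher, with a median log2 ratio of -1.54. The background for a lower call was 15.6%. Birc5, the survivin subunit of the chromosomal passenger complex, had 156 in the control library (147 reads) and 17.7 in the OHT library (13 reads), 8.78-fold lower (95% counting interval 4.98 to 16.9). Cdc25c, the phosphatase that starts mitosis, had 283 without OHT (267 reads) and 43.7 with it (32 reads), 6.48-fold lower (4.48 to 9.66). Cenpf, a kinetochore protein, had 1334 without OHT (1260 reads) and 236 with it (173 reads), 5.65-fold lower (4.82 to 6.67). Espl1, the separase that parts sister chromatids, had 1016 without OHT (959 reads) and 232 with it (170 reads), 4.38-fold lower (3.72 to 5.18). The abundant proliferation genes were lower by less: Mki67 had 4243 without OHT (4007 reads) and 1688 with it (1237 reads), 2.51-fold lower (2.36 to 2.68), and Top2a, which untangles DNA, 4349 without OHT (4107 reads) and 1729.9 with it (1268 reads), 2.51-fold lower (2.36 to 2.68). No mitosis gene with 20 or more stood more than 8.78-fold lower.

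Promoter windows are printed for 3 mitosis genes, taken from those with the lowest ratios. Each holds the letters of the cell cycle genes homology region (CHR), TTTGAA or TTTAAA on either strand. The DREAM complex acts through this element. The choice is not a strict ranking: Cdc25c, whose ratio lies between those of Birc5 and Cenpf, is not printed. Whether its window holds the letters is not given here. Windows and capitals are as above. Birc5 lies at chr11:117848987-117849236, plus strand, Cenpf at chr1:189688087-189688336, minus strand and Espl1 at chr15:102296043-102296292, plus strand.
Birc5: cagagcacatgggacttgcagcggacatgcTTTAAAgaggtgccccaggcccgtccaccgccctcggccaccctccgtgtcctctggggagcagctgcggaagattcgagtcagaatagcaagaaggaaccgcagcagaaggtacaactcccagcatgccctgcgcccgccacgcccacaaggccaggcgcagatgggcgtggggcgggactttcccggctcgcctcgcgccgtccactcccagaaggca
Cenpf: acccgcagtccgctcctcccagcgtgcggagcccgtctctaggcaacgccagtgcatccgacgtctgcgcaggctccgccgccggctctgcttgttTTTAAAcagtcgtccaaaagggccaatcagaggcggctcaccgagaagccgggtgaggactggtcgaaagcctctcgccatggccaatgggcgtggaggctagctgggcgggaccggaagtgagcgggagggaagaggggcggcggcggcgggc
Espl1: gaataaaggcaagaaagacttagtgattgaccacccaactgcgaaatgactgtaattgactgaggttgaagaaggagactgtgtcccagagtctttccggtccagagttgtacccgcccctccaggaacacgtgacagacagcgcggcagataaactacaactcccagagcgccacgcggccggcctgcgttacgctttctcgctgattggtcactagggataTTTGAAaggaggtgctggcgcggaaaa
Each window holds 1 match, which begins 220 bases before the start in Birc5, 154 in Cenpf and 27 in Espl1. The CHR letters were in 18 of 33 windows of mitosis genes (54.5%) and in 25.2% of all windows. The CCAAT box (CCAAT, either strand), which binds NF-Y, was in 24 of the 33 (72.7%) and in 33.9% of all. Windows of all lower transcripts held CHR letters in 20.4% and CCAAT in 40.0%, and those of all higher transcripts in 19.1% and 30.9%. For windows of the transcripts between the 2-fold limits, the shares were 16.7% and 35.5%.

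DNA replication genes were lower as a group: 21 of 36 members were at least 2-fold lower, none higher, and all 36 had a log2 ratio below 0 (median -1.05). Cdc45, part of the replicative helicase, had 84.7 in the control library (80 reads) and 17.7 in the OHT library (13 reads), 4.78-fold lower (95% counting interval 2.64 to 9.36). Pole, the leading-strand polymerase, had 1159.5 without OHT (1095 reads) and 279.7 with it (205 reads), 4.15-fold lower (3.57 to 4.84). Mcm10, which helps to start replication forks, had 1014 without OHT (958 reads) and 249.7 with it (183 reads), 4.06-fold lower (3.47 to 4.79), and the helicase subunit Mcm6 2726 without OHT (2574 reads) and 1318 with it (966 reads), 2.07-fold lower (1.92 to 2.23). Their windows held the E2F letters TTTCCCGC or TTTGGCGC on either strand in 5 of 30 (16.7%), against 1.3% of all windows, 3.85% of those of lower transcripts, 1.14% of higher and 2.63% of those between. Regulators of G1 went both ways. Ccnd1, encoding cyclin D1, had 96.4 without OHT (91 reads) and 1637 with it (1200 reads), 17-fold higher (13.7 to 21.3). Cdkn2b, the INK4B inhibitor that lies beside the deleted Cdkn2a, had 90 without OHT (85 reads) and 387 with it (284 reads), 4.3-fold higher (3.37 to 5.55). Cdk6, a partner of cyclin D and a known MLL fusion target, had 752 without OHT (710 reads) and 291 with it (213 reads), 2.59-fold lower (2.22 to 3.03), while Ccnd2 had 2880.1 without OHT (2720 reads) and 2883 with it (2113 reads).

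Growth and biosynthesis genes had smaller ratios. In ribosome biogenesis 6 of 35 genes were at least 2-fold lower, close to the 15.6% over all members, but 34 of 35 had a log2 ratio below 0 (median -0.64). Polr1b, a subunit of RNA polymerase I, had 1079 in the control library (1019 reads) and 452 in the OHT library (331 reads), 2.39-fold lower (95% counting interval 2.11 to 2.71). Nucleolin (Ncl) had 4686 without OHT (4425 reads) and 3892 with it (2853 reads). Sterol and fatty acid synthesis genes were at least 2-fold lower in 8 of 28 (28.6%, against 15.6% over all members), with 27 of 28 below 0. Fasn, the fatty acid synthase, had 3848 without OHT (3634 reads) and 1626 with it (1192 reads), 2.37-fold lower (2.22 to 2.53), and Acaca, which makes its substrate, 1207 without OHT (1140 reads) and 484 with it (355 reads), 2.49-fold lower (2.21 to 2.82). Amino acid genes included members far apart from each other. Cth, which makes cysteine from cystathionine, had 739 without OHT (698 reads) and 34.1 with it (25 reads), 21.7-fold lower (14.6 to 33.7). Slc7a11, which imports cystine, was on the other side, with 328 without OHT (310 reads) and 4179 with it (3063 reads), 12.7-fold higher (11.3 to 14.4). Pycr1, of proline synthesis, had 473 without OHT (447 reads) and 79.1 with it (58 reads), 5.98-fold lower (4.54 to 8.01).

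Genes known to be held active by MLL fusions were mostly lower. Of 23 members of this programme, all with 20 or more in the control library, 11 were at least 2-fold lower and 1 was higher, with 21 of 23 below 0 and a median log2 ratio of -0.92. Myb, a factor MLL-AF9 leukaemias depend on, had 149 in the control library (141 reads) and 31.4 in the OHT library (23 reads), 4.76-fold lower (95% counting interval 3.05 to 7.75). Lmo2, a bridging factor of stem cell complexes, had 62.5 without OHT (59 reads) and 17.7 with it (13 reads), 3.52-fold lower (1.91 to 7.0), and Runx2, a RUNX factor of bone and blood, 52.9 without OHT (50 reads) and 17.7 with it (13 reads), 2.99-fold lower (1.6 to 5.99). Hoxa9 had 122 without OHT (115 reads) and 54.6 with it (40 reads), 2.23-fold lower (1.54 to 3.28). Its cofactor Meis1 had 51.9 without OHT (49 reads) and 49.1 with it (36 reads), a ratio of OHT to control with a counting interval of 0.598 to 1.49. Log2 ratios in NT, HOXA9 and PML-RARa were -1.81, -1.27 and -2.26 for Myb, against -2.21 here. For Hoxa9 they were -1.58, 0.01 and -2.11, against -1.14 here, and for Meis1 1.60, -1.01 and 1.67, against -0.08. Over the list the medians were -0.35 in NT, -0.06 in HOXA9 and -0.42 in PML-RARa, above the -0.92 here. Etv6, an ETS factor and the most abundant of the list, had 2230.0 without OHT (2106 reads) and 2069.6 with it (1517 reads). Id2, an inhibitor of E proteins, was the member on the higher side, with 359 without OHT (339 reads) and 1441 with it (1056 reads), 4.01-fold higher (3.55 to 4.55). Of 15 cofactors of MLL and of its fusions, 3 were at least 2-fold lower, near the 15.6% over all members, and with ratios centred on their median 1 was lower and 1 higher. Psip1, the chromatin tether LEDGF, had 938 without OHT (886 reads) and 457 with it (335 reads), 2.05-fold lower (1.81 to 2.33).

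Stem and progenitor genes as listed had a median of -0.11, close to that of all members, with 3 of 19 at least 2-fold higher and 5 lower. These are 15.8% and 26.3%, against 14.5% and 15.6% over all members. Lyl1, a factor of early progenitors, had 1603 in the control library (1514 reads) and 539 in the OHT library (395 reads), 2.97-fold lower (95% counting interval 2.66 to 3.33). Procr, a surface receptor that marks stem cells and endothelium, had 11.6 without OHT (11 reads) and 315 with it (231 reads), 27.1-fold higher (14.8 to 55). Cd34 had 10.6 without OHT (10 reads) and 40.9 with it (30 reads). Of the 7 markers set down for progenitors, Kit and Ptprc were below the floor in both libraries, at 6.35 and 1.36 and at 14.8 and 16.4. Where a gene has more than 1 RefSeq transcript, its entries were low in general. The median was 2.2 per kb over the 3216 such transcripts, against 28.1 for the 16137 that are the only one of their gene. A low entry such as that of Kit therefore says little about the gene's level. The same may hold for other low entries given here, such as Meis1, Mtf2, Flt3 and Cd34. In the control library these stood at 16.2, 16.2, 20.6 and 4.15 per kb. Mpo, the myeloperoxidase of granulocyte and monocyte progenitors, was high in both, with 4588 without OHT (4333 reads) and 3046 with it (2233 reads).

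Hox genes divided by cluster. In HoxA, 10 of 11 genes measured were members, all with 20 or more in the control library. Of these 9 had a log2 ratio below 0, and 5 were at least 2-fold lower. Those 5, named after their values were seen, were Hoxa2, Hoxa3, Hoxa6, Hoxa9 and Hoxa10. Hoxa10 had 313 in the control library (296 reads) and 111 in the OHT library (81 reads), 2.84-fold lower (95% counting interval 2.21 to 3.67), and Hoxa3 368 without OHT (348 reads) and 128 with it (94 reads), 2.87-fold lower (2.28 to 3.65). Hoxa11 and Hoxa5, the highest values of the cluster, had 743 and 636 and 566 and 362 in the control and OHT library. The 10 members of HoxB, HoxC and HoxD all had log2 ratios above 0, and 6 were at least 2-fold higher. Of these 10, 7 reached 20 in the OHT library only, so their direction was set by the floor. All 6 higher calls were among those 7, and none of the other 3 was at least 2-fold higher. Hoxd13 had 5.29 without OHT (5 reads) and 69.6 with it (51 reads), 13.1-fold higher (5.28 to 42.2). Hoxc9 had 1.06 without OHT (1 read) and 32.7 with it (24 reads) and Hoxb7 16.9 without OHT (16 reads) and 57.3 with it (42 reads). Summed over all genes measured in a cluster, values went from 2798 to 1768 in HoxA and from 373 to 559 in HoxB. In HoxC they went from 13.8 to 104 and in HoxD from 13.8 to 109.

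Developmental transcription factors outside blood, the classic targets of PRC1, were mostly silent in both libraries: 69 of 84 measured were under the floor. The 15 members included 12 that reached 20 in the OHT library only. Lhx2, a homeobox factor of brain and limb, had 1.06 in the control library (1 read) and 162 in the OHT library (119 reads), 153-fold higher (95% counting interval 27 to 6106). Of the other 3, Tbx15, a T-box factor of skeleton and skin, was at least 2-fold higher and Pax8, a thyroid and kidney factor, at least 2-fold lower. Tbx15, named after its values were seen, had 33.9 without OHT (32 reads) and 239 with it (175 reads), and Pax8 367 without OHT (347 reads) and 40.9 with it (30 reads), 8.98-fold lower (6.18 to 13.5). Pitx1, a hindlimb factor, had 2.12 without OHT (2 reads) and 99.6 with it (73 reads), and En2, of the midbrain, 3.18 without OHT (3 reads) and 99.6 with it (73 reads). Zic2 and Foxl2 went from 3.18 to 64.1 and from 3.18 to 65.5. Irx5, measured well in both, had 364 without OHT (344 reads) and 360.2 with it (264 reads). Their promoter windows were rich in CpG, with a median of 25.5 per window over the 10 windows found, against 6 in all windows. Among members the medians were 12 for the higher, 14 for the lower and 17 for those between. For mitosis genes the median was 19, for interferon effectors 4 and for macrophage markers 1.5.

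**Figure D3:**
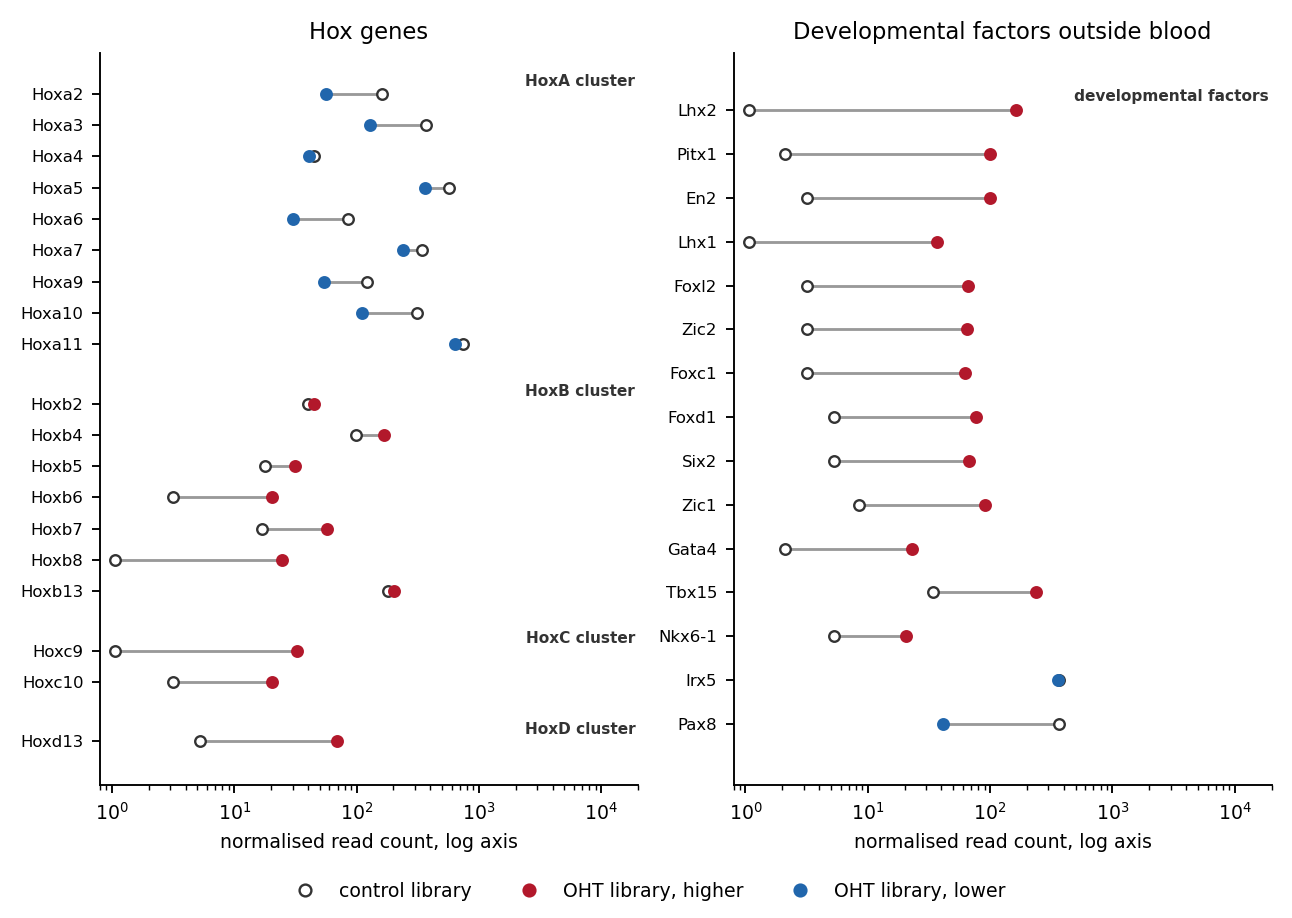
Normalised read counts (log axis) of Hox genes by cluster (1 HoxA member is not drawn) and of the 15 developmental transcription factors that were members, in the control library (open circles) and the OHT library (filled circles; red where higher, blue where lower). The plot shows the 9 HoxA members with a log2 ratio below 0, and the genes of the other clusters, which lie higher with OHT.

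Genes of the Polycomb complexes were mostly within the 2-fold limits. None of 16 PRC1 members was at least 2-fold higher and 5 were lower, Ring1 among them (31.25% lower, against 15.6% over all members). The lower count depends on the setting: with ratios centred on their median 1 was lower, and with a pseudocount of 10, 4 were. Cbx7, one of the chromodomain subunits, had 354 in the control library (334 reads) and 169 in the OHT library (124 reads), 2.09-fold lower (95% counting interval 1.7 to 2.59). Bmi1, a PCGF partner of the RING subunits, had 688 without OHT (650 reads) and 1106 with it (811 reads), 1.61-fold higher (1.45 to 1.78). In PRC2, which methylates histone H3 at lysine 27, 2 of 11 genes were at least 2-fold lower, near the 15.6% over all members. These were the accessory subunits Phf19, with 536 without OHT (506 reads) and 113 with it (83 reads), 4.73-fold lower (3.75 to 6.04), and Mtf2, with 65.7 without OHT (62 reads) and 15 with it (11 reads), 4.37-fold lower (2.28 to 9.21). The entry of the catalytic subunit Ezh2 had only 21 and 10 reads, and a low entry says little about a gene's level, as given for Kit.

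Genes of the other blood lineages did not share a direction. Neutrophil primary granule genes had a median log2 ratio of -0.41. Of 10, 1 was at least 2-fold higher and 1 lower (10% each, against 14.5% and 15.6% over all members). Prtn3, encoding proteinase 3, had 1788 in the control library (1689 reads) and 1337 in the OHT library (980 reads). Late granule and maturation genes had 8 of 18 at least 2-fold higher and 1 lower (44.4% and 5.56%). With 20 or more in the control library there were 17, 7 of them higher and 1 lower. Mmp8, the neutrophil collagenase, had 696 without OHT (657 reads) and 4108 with it (3011 reads), 5.9-fold higher (95% counting interval 5.42 to 6.43). Mmp9 had 166 without OHT (157 reads) and 2658 with it (1948 reads), 16-fold higher (13.6 to 18.9), and lactoferrin (Ltf) 294 without OHT (278 reads) and 1169 with it (857 reads), 3.97-fold higher (3.47 to 4.56). Camp and Ngp, of the same granules, had values of 676 and 692 and of 1839 and 1787. Of 10 mast cell and basophil genes, 5 were at least 2-fold higher (50%, against 14.5% over all members) and none lower. Of the markers set down for these cells, Mcpt8 had 343 without OHT (324 reads) and 261 with it (191 reads), 1.32-fold lower (1.1 to 1.58). Ms4a2, another of them, was under the floor in both libraries, at 11.6 and 12.3. The mast cell tryptase Tpsb2 had 66.7 without OHT (63 reads) and 630.3 with it (462 reads), 9.45-fold higher (7.25 to 12.5), and the carboxypeptidase Cpa3 281 without OHT (265 reads) and 988 with it (724 reads), 3.52-fold higher (3.05 to 4.07). Eosinophil genes went both ways, with 2 of 7 members at least 2-fold higher and 2 lower (0 and 2 of the 4 with 20 or more in the control library). The lower ones were the granule genes Epx, the eosinophil peroxidase, with 826 without OHT (780 reads) and 98.2 with it (72 reads), 8.41-fold lower (6.6 to 10.9), and Prg3, with 79.4 without OHT (75 reads) and 24.6 with it (18 reads), 3.23-fold lower (1.91 to 5.75). Prg2, the major basic protein of the same granules, stood 1.73-fold (1.53 to 1.97) lower. Platelet genes were at least 2-fold higher in 8 of 11 and lower in 1 (5 and 1 of the 8 with 20 or more in the control library). The platelet chemokines Ppbp and Pf4, which macrophages can also express, went from 11.6 to 1398 and from 34.9 to 662.

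Markers set down for cells that the preparation should lack were low. The 5 lymphocyte markers were all under the floor and summed to 8.47 in the control library and 15 in the OHT library. The 3 erythroid markers in the table summed to 21.2 and 34.1, while the markers Hba-a1 and Hbb-b1 were not measured. For stroma and endothelium the 5 markers summed to 43.4 and 57.3, with Col1a2 at the lowest entry in both. Within that sum Col1a1, a collagen of stroma, went from 4.24 (4 reads) to 30.0 (22 reads) and Pecam1, of endothelium, from 34.9 to 16.4. For dendritic cells the 3 markers in the table summed to 18 and 28.6. The macrophage sum thus stood apart from these marker sums. The wider gene lists were not low. Erythroid genes summed to 3688 and 3555 in the control and OHT library, and B, T and NK cell genes to 981 and 2471. Stromal, endothelial and epithelial genes summed to 3370 and 4780, and dendritic cell and MHC class II genes to 1965 and 5195. The neutrophil markers, present in both libraries, summed to 8078 and 12621, and the mast cell and basophil markers to 723 and 2033. Megakaryocyte markers summed to 345 and 1542, and eosinophil markers to 1768 and 621. These cell types and the lower depth of the OHT library moved with the ratios above, and their part in them was not tested.

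Genes of the p53 response, with 23 members, had 6 at least 2-fold higher and 4 lower. These are 26.1% and 17.4%, against 14.5% and 15.6% over all members. Plk2, a polo-like kinase, had 14.8 in the control library (14 reads) and 1851 in the OHT library (1357 reads), 125-fold higher (95% counting interval 74.2 to 229), and Phlda3, an inhibitor of AKT, 165 without OHT (156 reads) and 577 with it (423 reads), 3.49-fold higher (2.9 to 4.23). Mdm4, which restrains p53, had 1279 without OHT (1208 reads) and 443 with it (325 reads), 2.88-fold lower (2.55 to 3.27), and Mdm2, its ubiquitin ligase, stood 1.81-fold (1.68 to 1.95) higher. Of 13 BCL2 family genes with 20 or more in the control library, 5 were at least 2-fold higher. Over all 15 members of the family 6 were higher (40%, against 14.5% over all members) and none lower. Among them the survival genes Mcl1 and Bcl2l1 stood 2.02-fold (1.91 to 2.13) and 2.13-fold (1.9 to 2.38) higher, and Bmf, which promotes death, 2.54-fold (2.06 to 3.15) higher. The Bcl2a1 copies (Bcl2a1a, Bcl2a1b and Bcl2a1d) are near-identical, so their values may be divided wrongly between them. RNA-binding proteins of the fetal programme split: Lin28a had 624 without OHT (589 reads) and 131 with it (96 reads), 4.76-fold lower (3.83 to 5.97), and Lin28b 346 without OHT (327 reads) and 84.6 with it (62 reads), 4.09-fold lower (3.11 to 5.46). Igf2bp2 had 54 without OHT (51 reads) and 587 with it (430 reads), 10.9-fold higher (8.11 to 14.8), and Igf2bp1 10.6 without OHT (10 reads) and 233 with it (171 reads), 22-fold higher (11.7 to 46.8).

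**Figure D4:**
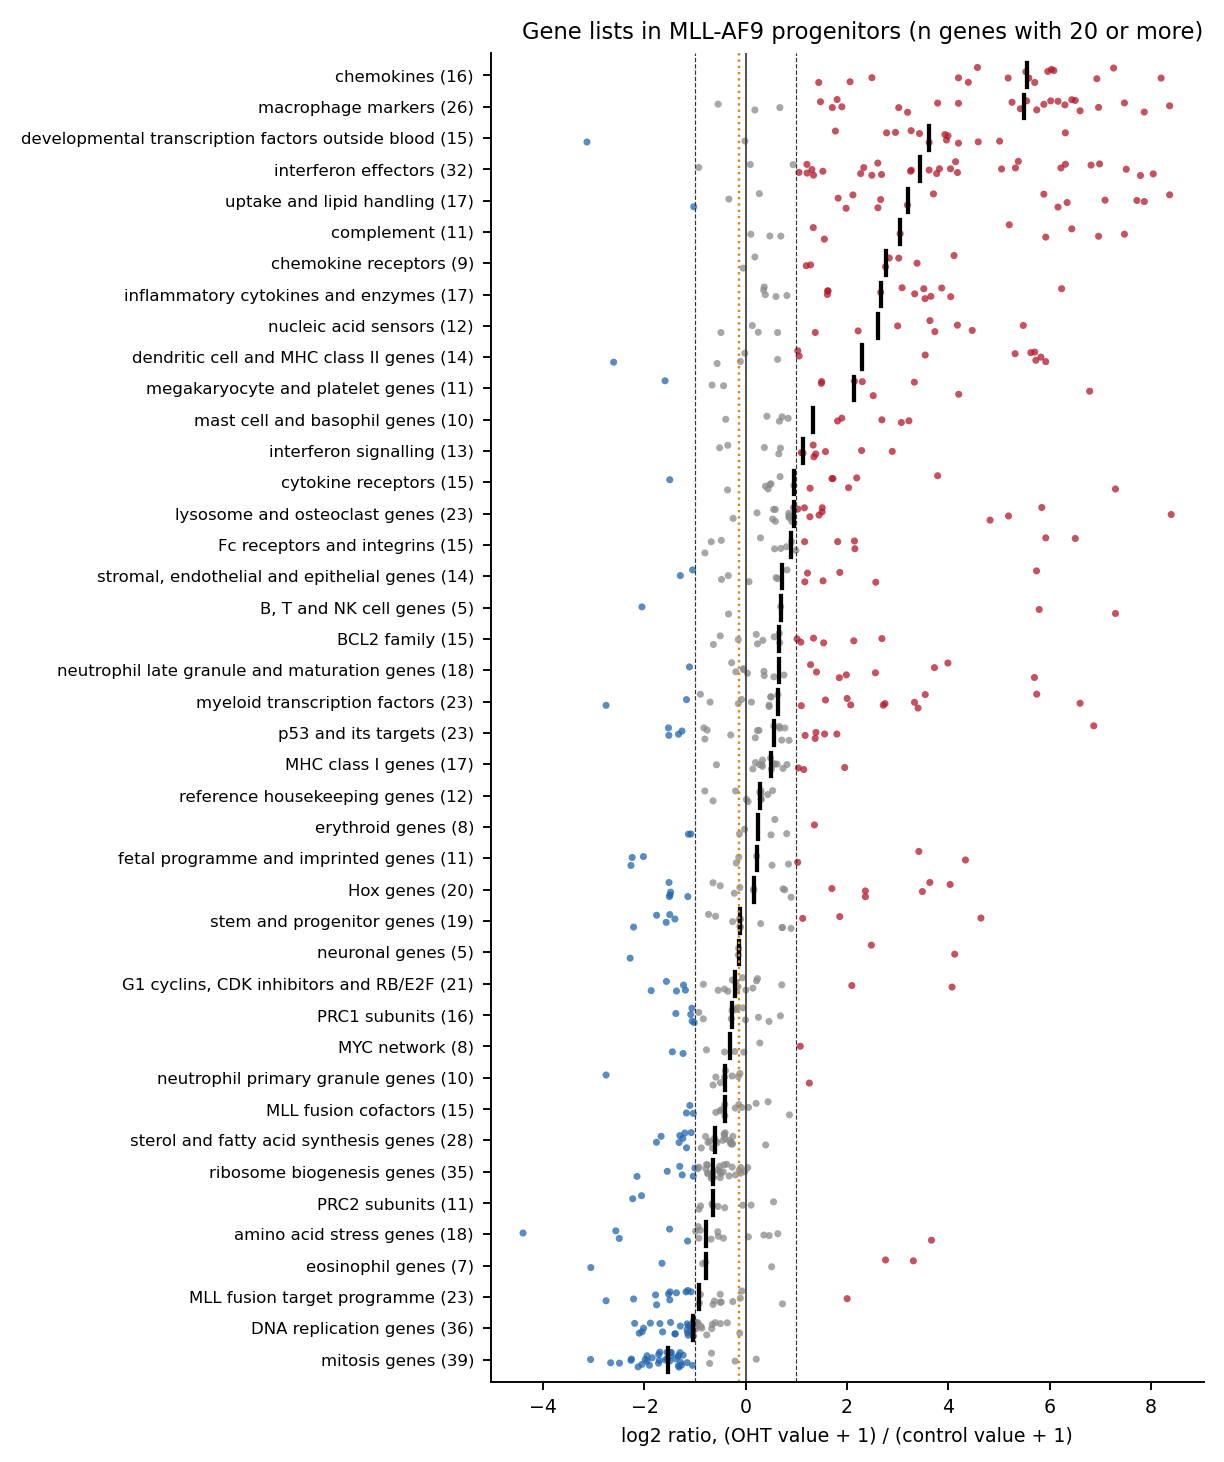
Log2 ratio (horizontal, OHT over control on values with 1 added) of every member of the gene lists that have at least 5 members, 1 point a gene, red at or above 1 and blue at or below -1. Black bars are list medians, the dotted line is the median of all members (-0.14), and numbers in brackets count genes; the vertical scatter within a row has no meaning. Chemokines (5.56) and macrophage markers (5.48) have the highest medians, and mitosis genes (-1.54) the lowest. Of the 16 chemokines 11, and of the 26 macrophage markers 14, reached 20 in the OHT library only, so the floor set their direction. All 39 mitosis genes had 20 or more in the control library.

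Outside the lists, the lowest ratios among members with 100 or more belonged to genes of varied roles. Tgfb2, a growth factor of the TGF-beta family, had 391 in the control library (369 reads) and 4.09 in the OHT library (3 reads), 95.5-fold lower (95% counting interval 32.4 to 465). Megf10, a receptor for dying cells, had 357 without OHT (337 reads) and 6.82 with it (5 reads), 52.3-fold lower (22.2 to 162). Cldn11, a tight junction protein, had 329 without OHT (311 reads) and 12.3 with it (9 reads), 26.8-fold lower (13.9 to 59.2), and the phosphate-regulating hormone gene Fgf23 151 without OHT (143 reads) and 8.19 with it (6 reads), 18.5-fold lower (8.29 to 51.2). Each was well measured without OHT and had under 10 reads with it. At the upper end stood Irg1, which makes itaconate in activated macrophages, with 4.24 without OHT (4 reads) and 1639.8 with it (1202 reads), and Cyp1b1, a cytochrome P450, with 1.06 without OHT (1 read) and 286 with it (210 reads). The largest gain in level per kb of transcript was that of Hmox1, the haem-degrading enzyme, from 140.4 to 2155 normalised reads per kb (208 and 2478 reads). Reads per base were at most 1.86 in the control library and 1.79 in the OHT library, and Hmox1 reached 1.58. The 1.86 and 1.79 are the maxima over all transcripts with a length, so every such transcript lies at or under them by definition. Whether reads from the same position were counted once is not given in the sources used here, and if so ratios of dense transcripts are understated. Saa3, an acute-phase protein, went from 244 to 1831 per kb, and the lipid droplet protein Plin2 from 490.2 to 1937 per kb. The largest losses per kb among protein-coding genes were those of Tgm2, a transglutaminase, from 1074 to 413 per kb, and Lyl1, from 891 to 299 per kb.

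To see what the MLL-AF9 cells share with the others, the same ratio was read in the 3 other contexts, whose libraries are all separate. Of the 1570 transcripts at least 2-fold higher here, 705 were also called higher in HOXA9, which is 44.9% of the MLL-AF9 calls and 71.6% of the 984 HOXA9 calls. In NT the overlap was 736, or 46.9% and 50.2% of 1465, and in PML-RARa 439, or 28.0% and 45.4% of 968. Over all members of MLL-AF9, 7.96% were called higher in HOXA9, 10.4% in NT and 6.35% in PML-RARa. Of the 1694 lower transcripts, 610 were called lower in PML-RARa, 533 in NT and 373 in HOXA9. These are 36.0%, 31.5% and 22% of the MLL-AF9 calls, against 11.9%, 8.04% and 5.16% over all members. They are 41.2% of the 1481 lower calls in PML-RARa, 57.0% of the 935 in NT and 56.2% of the 664 in HOXA9.

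List medians place MLL-AF9 among the others. Macrophage markers had a median log2 ratio of 5.48 in MLL-AF9, against 1.66 in NT, 2.88 in HOXA9 and 3.05 in PML-RARa. For chemokines the medians were 5.56, 1.97, 3.47 and 1.73 in the same order, and for interferon effectors 3.44, 1.33, 2.80 and 1.76. Mitosis genes were not lowest in MLL-AF9, with medians of -1.54, -1.88, -0.62 and -1.59. The MLL fusion target programme had -0.92 in MLL-AF9, -0.35 in NT, -0.06 in HOXA9 and -0.42 in PML-RARa. Developmental transcription factors had 3.62 in MLL-AF9, 3.12 in NT, 0.29 in HOXA9 and -1.25 in PML-RARa. With a pseudocount of 10 the MLL-AF9 medians were 4.25 for macrophage markers, 4.19 for chemokines and 2.46 for developmental factors. The medians run over genes that reached the floor in MLL-AF9, which favours its own ratios, and they are given as a description.

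**Figure D5:**
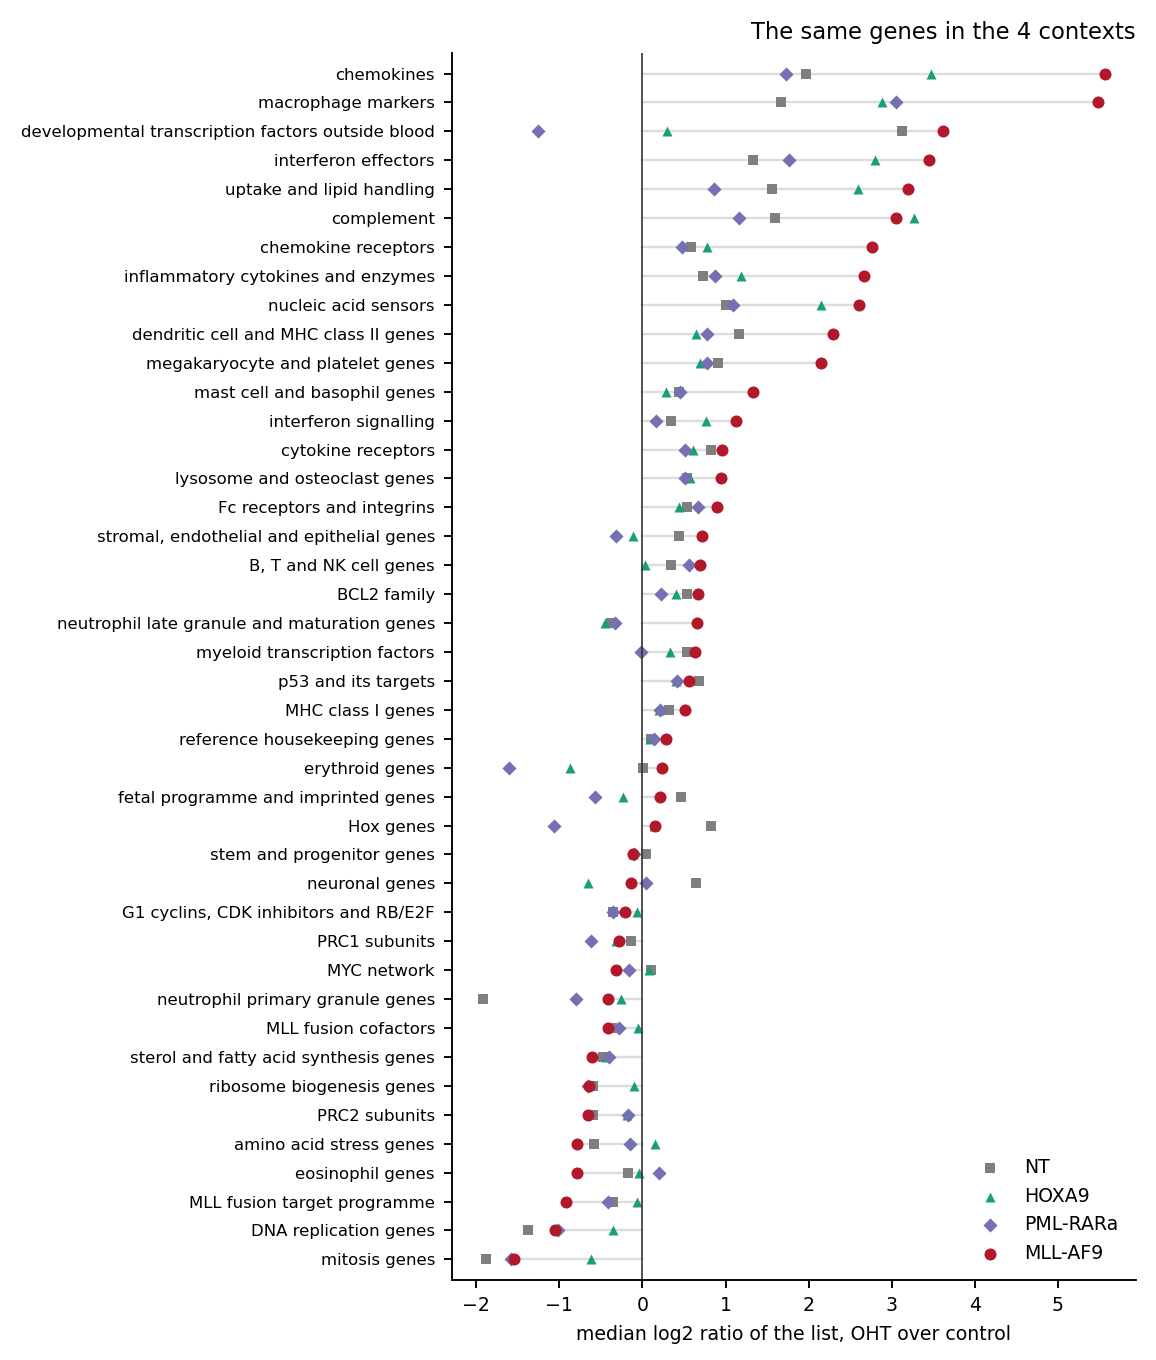
Median log2 ratio (OHT over control) of each gene list with at least 5 members, over the same genes, in MLL-AF9 (red circles) and in NT (grey squares), HOXA9 (green triangles) and PML-RARa (purple diamonds). For macrophage markers the MLL-AF9 median is 5.48 and the others lie between 1.66 and 3.05; for mitosis genes the MLL-AF9 median of -1.54 lies among the others.

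Whether the MLL-AF9 ratio of a transcript differs from those of the other contexts was tested directly, with limma on the 4 ratios. The lone MLL-AF9 ratio is assumed to vary like the other 3. No transcript of 10599 passed (0%; smallest adjusted p 0.41 by limma with Benjamini-Hochberg adjustment). At an unadjusted p under 0.05 there were 845 (7.97%), 411 with a higher ratio in MLL-AF9 and 434 with a lower one. edgeR's quasi-likelihood test on the recovered reads also called 0 (782 at an unadjusted p under 0.05). DESeq2 on the same reads called 164 of the 8338 transcripts it gave an adjusted p (1.97%), 161 of them with a higher ratio in MLL-AF9. Calls by DESeq2 thus went past what limma and edgeR found, and no difference between contexts is taken as shown.

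By size, the largest differences with an unadjusted limma p under 0.05 included those of chemokine and signalling genes. Tnip3, an inhibitor of NF-kappaB signalling, had 3.18 in the control library (3 reads) and 813 in the OHT library (596 reads). Its log2 ratio of 7.61 stood against 1.64 in NT, 2.07 in HOXA9 and 2.02 in PML-RARa, a difference of 5.69 ± 0.31 (SE; limma adjusted p = 0.41, DESeq2 adjusted p = 3.3e-06). Myof, encoding the membrane repair protein myoferlin, had 28.6 without OHT (27 reads) and 2417 with it (1772 reads). Its ratio of 6.35 stood against 2.65 in NT, 2.13 in HOXA9 and -0.12 in PML-RARa, a difference of 4.80 ± 1.26 (SE; limma adjusted p = 0.62, DESeq2 adjusted p = 9.4e-06). Marcks, a substrate of protein kinase C, differed by 4.64 ± 0.81 (SE; limma adjusted p = 0.58). Ccl7 and Ccl2 differed by 5.16 ± 1.32 and 5.02 ± 1.45 (SE), with limma adjusted p of 0.62 for each. The choice by the largest difference fixes that MLL-AF9 lies above the others in these genes. On the other side, Megf10 differed by -5.50 ± 1.81 (SE; limma adjusted p = 0.62), with ratios of -5.52 in MLL-AF9 and 1.70 in NT, -2.40 in HOXA9 and 0.65 in PML-RARa. Slc1a4, a neutral amino acid transporter, had 444 without OHT (419 reads) and 101 with it (74 reads), a ratio of -2.12 against 1.04 in NT, 0.33 in HOXA9 and 0.71 in PML-RARa. Its difference was -2.82 ± 0.38 (SE; limma adjusted p = 0.57, DESeq2 adjusted p = 0.0054). Il2ra, the alpha chain of the IL-2 receptor, had 145 without OHT (137 reads) and 38.2 with it (28 reads) and a difference of -2.72 ± 0.89 (SE; limma adjusted p = 0.62).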

How the data were processed

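Messenger RNA of 8 libraries, 1 in each of 8 groups set by the labels, was sequenced from kits that do not mark strand, per the labels' protocols. The deposited tables give each transcript a mean normalised read count (signal) per library, which the authors made with TopHat and DESeq on mm9, per the submitters' processing notes; for the read counter and read filters, nothing is given in the sources used here. The p-value column the authors deposited rests on 1 library a side and is quoted only as a count. Each value was turned back into whole reads (all came out whole within 0.02 of a read), which gave the library totals. Genes were matched to RefSeq, with 18873 of 19353 transcripts given a length. For a gene with several transcripts, a list takes the one with the highest mean of the MLL-AF9 libraries. Its values need not stand for the whole gene.

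The ratio is log2 of (OHT value + 1) over (control value + 1). Intervals are 95% exact counting intervals (Poisson for a value, conditional Clopper-Pearson for a ratio). They cover counting error only, and reads without molecular identifiers are not independent molecules. Differences between contexts were tested with limma 3.58.1 (R 4.3.3) on transcripts with a mean of 20 or more, two-sided, with Benjamini-Hochberg adjustment at 0.05; edgeR 4.0.16 and DESeq2 1.42.0 on the recovered reads were alternatives. The limma step was tested on simulated data drawn without any OHT effect in the other contexts. That setting differs from these data, so it does not show the power of the test here. Whether the libraries came from separate mice or cultures is not given, so p-values measure only the spread between these samples, which may be technical.

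Members and gene lists were chosen with earlier results of these data known. Named are the 15 highest and 15 lowest ratios at 100 or more, the 10 largest gains and losses per kb, up to 6 genes per list by ratio and 2 by level, the genes Rnf2, Ring1, Cdkn2a, Kmt2a, Mllt3, Hoxa9 and Meis1, the 10 largest differences from the other contexts in each direction, and the cell type markers. The text draws from these, leaves out some that are not reported here, and says where a gene was named after its values were seen. The other settings tried were the pseudocount, the floor, centring, 1 transcript a gene, dense transcripts left out, the fold, the tool and each other context left out. Setting entries of 1 read to 0 was chosen after seeing the data.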

Additional observations from a re-analysis of the deposited data

Results flagged for a closer look

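The search covered medians of lists with at least 5 members, and named genes with 100 or more that were at least 2-fold apart. Over all members, 1 transcript outside this search was at least 2-fold lower in MLL-AF9 and at least 2-fold higher in all 3 other contexts. In 2 results of the search MLL-AF9 went one way and the 3 other contexts the opposite way. The median log2 ratio of the 18 neutrophil late granule and maturation genes was 0.65 in MLL-AF9, against -0.38 in NT, -0.45 in HOXA9 and -0.33 in PML-RARa. The genes behind it included Ltf, with log2 ratios of 1.99 in MLL-AF9, -0.57 in NT, -0.71 in HOXA9 and 0.51 in PML-RARa. Each median comes from 1 pair of libraries, and the difference between the medians was not tested. The neutral amino acid transporter Slc1a4 had a log2 ratio of -2.12 in MLL-AF9 (443.7 in the control library, 101 in the OHT library), against 1.04 in NT, 0.33 in HOXA9 and 0.71 in PML-RARa. The test of that difference gave an adjusted p of 0.57 with limma and of 0.0054 with DESeq2.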

How the results depend on the processing

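The counts of transcripts at least 2-fold higher (1570) and lower (1694) stayed within 1.5 times of these values with a pseudocount of 10, a floor of 50, centred ratios, 1 transcript per gene, dense transcripts left out, a counting interval clear of 1, and entries of 1 read set to 0. Without a floor they were 2511 and 2566, where more transcripts enter, and at 4-fold 831 and 337. Centring on the median, a shift of 0.14 on the log2 scale, gave 1748 higher and 1367 lower. Of 176 list medians recomputed over 44 lists, 157 kept their sign within 1.5-fold, 14 moved by more and 5 changed sign. Among the 14, a pseudocount of 10 took macrophage markers to 4.25, chemokines to 4.19 and developmental transcription factors to 2.46, with the same direction. Those 5 were the Hox genes (-0.50) and the neuronal (1.17) and erythroid (-0.023) genes at a floor of 50, stem and progenitor genes (0.023) with centring, and housekeeping genes (-0.42) without dense transcripts, which left 13, 4, 3, 19 and 4 genes. Their cause was not tested.

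The test of MLL-AF9 against the other contexts called 0 transcripts with limma and 0 with edgeR, and 164 with DESeq2. With each other context left out in turn the counts ran from 0 to 0. Then 1026 transcripts had an unadjusted limma p under 0.05 without NT, 1023 without HOXA9 and 489 without PML-RARa. That test already pairs the OHT and control library of each context. Within a context there is 1 pair and no test. With 1 library a side, counting error sets only a lower limit on the uncertainty of every ratio, and at 1 to 3 reads the ratio itself is poorly known.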

Other observations

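Of 23 stromal, endothelial and epithelial genes measured, 14 were members, 6 of them at least 2-fold higher and 2 lower. These are 42.9% and 14.3%, against 14.5% and 15.6% over all members. Of the 12 with 20 or more in the control library, 4 were higher and 2 lower. Kdr, the main VEGF receptor of endothelium, had 1.06 in the control library (1 read) and 109 in the OHT library (80 reads). Flt1, a second VEGF receptor, had 205 (194 reads) and 593.5 (435 reads), 2.89-fold higher (95% counting interval 2.43 to 3.44). Cdh1, encoding E-cadherin, had 257 (243 reads) and 934.5 (685 reads), 3.63-fold higher (3.13 to 4.22). Pecam1, a defining endothelial marker, had 34.9 in the control library and 16.4 in the OHT library. L1cam, a neuronal adhesion molecule, had 23.3 (22 reads) and 423 (310 reads), 18.2-fold higher (11.8 to 29.4), and Ncam1 was on the other side, with 37.1 (35 reads) and 6.82 (5 reads).

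Genes usually found in lymphocytes were likewise mixed. Blnk, an adaptor of the B cell receptor, had 1.06 (1 read) and 113 (83 reads). Nkg7, of cytotoxic granules, had 472 (446 reads) and 113 (83 reads), 4.17-fold lower (3.29 to 5.34), and its log2 ratio was below -1 in all 4 contexts. The defining T and NK cell markers Cd3e, Cd3g and Ncr1 stood at 1 read in both libraries. Cells were not sorted for these genes, and no hypothesis was tested on them.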
